A study of Mus musculus with 18 samples.

Results

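The NR4A nuclear receptors and the genes that carry the glucagon and cyclic AMP (cAMP) signal in the liver were followed across 18 mouse livers. The set holds 10 of the 18946 genes in the deposited expression table, taken by their symbols: the glucagon receptor Gcgr, the phosphodiesterases Pde4b and Pde4d, the coactivator Crtc2, the kinases Sik1 and Sik2, the transcription factor Crem, and Nr4a1, Nr4a2 and Nr4a3. These genes were chosen by hand with their fitted Old minus Young differences in these livers already known, so their values by age are a description and carry no p-value here. All livers came from male C57BL/6J mice, an inbred strain, that had been fasted overnight and then received an insulin infusion with blood glucose held level (a hyperinsulinemic-euglycemic clamp), so no liver without insulin infusion was compared. The labels put the age of the 8 Young mice at 6.18 months and that of the 10 Old mice at 19.76 months, while for the latter the design text has 20 months and the protocol of growth 21. Each library came from a separate mouse. RNA was extracted with the AllPrep DNA/RNA kit for 3 Young and 5 Old livers and with the RNeasy kit for 5 Young and 5 Old livers. By the labels every Old mouse was heavier than every Young mouse, so age and body weight cannot be told apart. Except for Old replicate 5, every Old mouse with an AllPrep liver was heavier than every Old mouse with an RNeasy liver. Kit and body weight thus largely went together among Old mice. The part of weight in the age and kit differences was not tested.

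Glucagon, the hormone of fasting, binds its receptor on hepatocytes and makes adenylyl cyclase produce cAMP, which phosphodiesterases break down. Protein kinase A, freed by cAMP, phosphorylates CREB and holds salt-inducible kinases in check, so that the coactivator CRTC2 can enter the nucleus and switch on genes of glucose production such as Pck1 and G6pc. Nr4a1, Nr4a2, Nr4a3, Sik1 and Crem are themselves rapidly induced by cAMP in liver, and insulin opposes much of this programme.

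Promoters of the NR4A genes are shown because these 3 genes had the largest age differences together with Sik1, and because the CREB half-site is the sequence through which cAMP is known to act. The letters searched were TGACG and its reverse complement CGTCA, which overlap in the palindrome TGACGTCA, so that each copy of the palindrome would hold both. In the 250 bases before the start, Nr4a1, Nr4a2 and Nr4a3 each held 4 half-sites. RefSeq promoter entries (build GRCm38.p6) were found for 7 of the 10 genes and not for Crem, Crtc2 and Sik1, which were therefore not searched. The Nr4a1 sequence lies at chr15:101266596-101266845 on the plus strand, the Nr4a2 sequence at chr2:57124004-57124253 on the minus strand and the Nr4a3 sequence at chr4:48045055-48045152 on the plus strand. The stretch shown for Nr4a3 is 98 bases long, since it stops where a GENCODE M21 exon begins, and it holds 3 of the 4 half-sites. Each is written 5′ to 3′ along the gene, with half-sites in capitals.
Nr4a1: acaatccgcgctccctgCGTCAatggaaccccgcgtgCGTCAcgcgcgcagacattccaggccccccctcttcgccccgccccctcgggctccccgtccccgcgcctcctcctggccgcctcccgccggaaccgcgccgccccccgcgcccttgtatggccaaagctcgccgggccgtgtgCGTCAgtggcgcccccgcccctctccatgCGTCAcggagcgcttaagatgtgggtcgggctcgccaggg
Nr4a2: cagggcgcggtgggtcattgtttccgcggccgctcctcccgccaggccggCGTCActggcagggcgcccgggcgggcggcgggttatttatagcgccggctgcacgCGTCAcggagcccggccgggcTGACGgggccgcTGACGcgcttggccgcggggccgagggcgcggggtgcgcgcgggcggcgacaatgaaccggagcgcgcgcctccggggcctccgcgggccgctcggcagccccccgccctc
Nr4a3: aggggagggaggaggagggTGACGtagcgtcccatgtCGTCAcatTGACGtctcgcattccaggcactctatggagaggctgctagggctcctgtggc

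Of 32851 RefSeq promoter windows of 250 bases, of which a gene can have several, 17.8% held at least 1 half-site, 3.9% at least 2, 0.688% at least 3 and 0.137%, or 45 windows, at least 4. Pde4b held 1 half-site in 1 of its 4 windows, and the windows of Pde4d, Sik2 and Gcgr held 0. The palindrome TGACGTCA stood in 1.55% of all windows and in 0 of the 10 windows of the 7 genes with an entry. The NR4A response element AAAGGTCA, searched on both strands, stood in 1.34% of all windows and also in 0 of the 10. A match is a description of letters, and no binding was measured.

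Levels below are in TPM, a share of reads per gene length that sums to the same total in every library, scaled between libraries by a trimmed mean of log ratios, which corrects for differences in library composition. Because TPM is per gene length, levels are set against each other between genes below. That order depends on the lengths used, and how they were set is not given. Gcgr was the most abundant of the 10 at a mean of 100.9 scaled TPM over the 18 livers, followed by Sik1 at 44.0, Nr4a1 at 26.9 and Crtc2 at 21.7. Sik2 (8.21) and Crem (6.33) were intermediate, and Nr4a2 (2.49), Pde4b (1.95), Pde4d (1.30) and Nr4a3 (1.18) were low. Gcgr lay above Sik1 in 18 of 18 livers and Crtc2 above Sik2 in 18 of 18. Nr4a1 lay above Crtc2 in only 8 of 18 livers, and Nr4a2 above Pde4b in 8 of 18, so these neighbours were not separated. Pde4d lay above Nr4a3 in 12 of 18. The reads recovered behind these values came to at least 46 per library for Nr4a3, 76 for Nr4a2 and 602 for Nr4a1, and to 8800 or more for Gcgr.

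**Figure D1:**
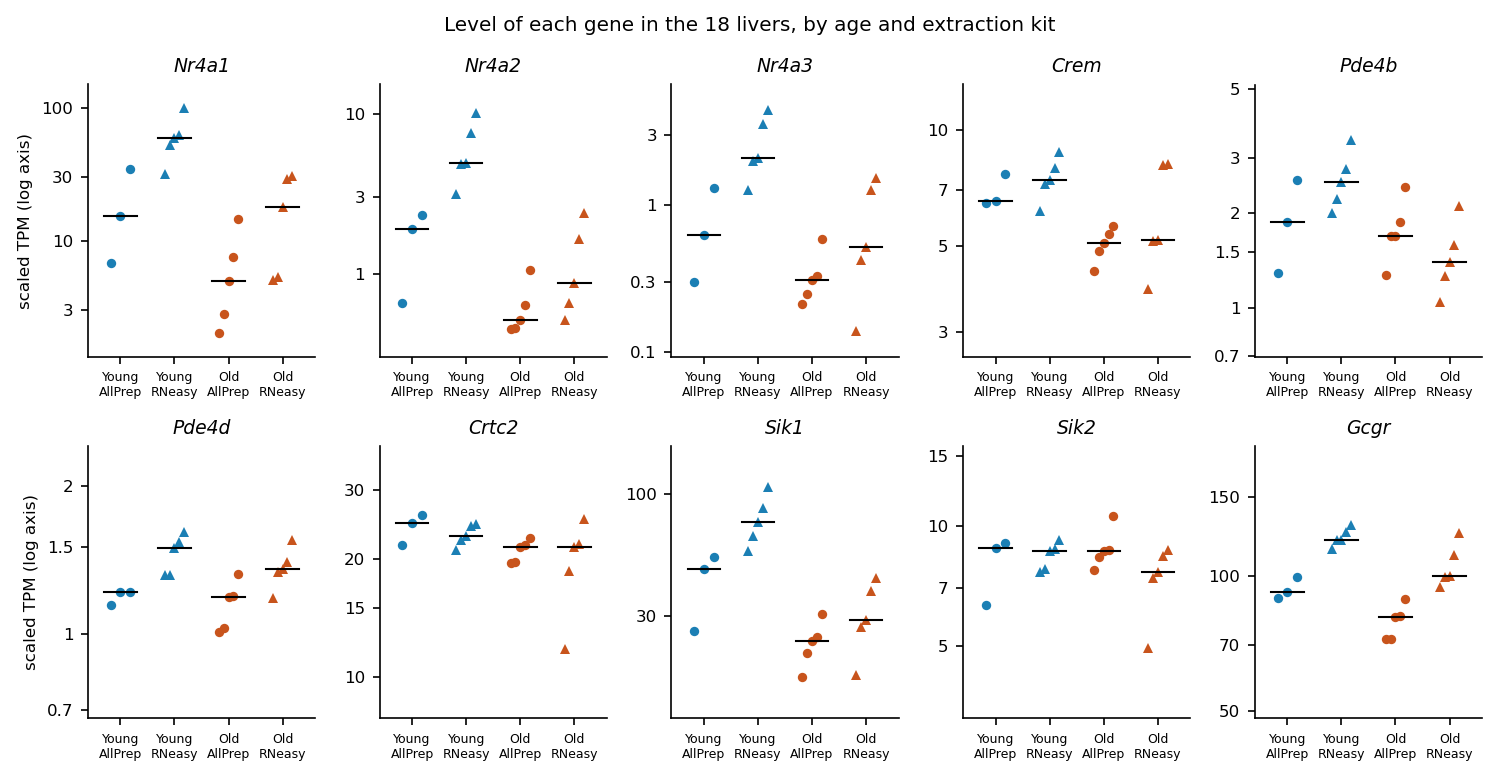
Each panel plots 1 gene's scaled TPM on a log axis for every liver, by age (blue Young, orange Old) and extraction kit (circles AllPrep, triangles RNeasy), with a black line at the median. Nr4a1 spans 2.00 to 100.5 and is highest in the Young RNeasy livers, whereas Pde4d spans 1.01 to 1.61 and Sik2 4.94 to 10.6.

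All 10 genes had a negative fitted difference between Old and Young livers, and 5 of them, Nr4a1, Nr4a2, Nr4a3, Sik1 and Gcgr, passed the threshold of an adjusted p under 0.05 (limma over 13895 genes, age and kit as terms). Over all tested genes 4.91% passed, 2.47% lower and 2.44% higher in Old. Since the genes were chosen with these differences known, neither the counts of the 10 nor whether a gene passes is a test, and nothing is read from them against the share of all genes. The median difference of the 10 was -0.38 on the log2 scale against 0.00 over all genes tested, of which 49.1% had a negative value. In no gene of the set did every Old liver lie below every Young liver, which held for 0.202% of tested genes. In these whole-liver samples, fewer cells that express a gene and less RNA per cell cannot be told apart.

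The 2 largest age differences were those of Nr4a1 and Nr4a2, which with Nr4a3 make up the NR4A family of orphan nuclear receptors, for which no hormone is firmly known. Nr4a1, also called Nur77, was at 6.79, 15.3 and 34.8 scaled TPM in the 3 Young AllPrep livers and at 31.6, 52.9, 60.0, 62.3 and 100.5 in the 5 Young RNeasy livers. In Old mice it was at 2.00, 2.79, 4.99, 7.55 and 14.6 in AllPrep livers and at 5.07, 5.36, 17.9, 29.2 and 30.8 in RNeasy livers. Every Old liver lay below the Young median of 43.9, and within RNeasy livers the ages did not overlap. The mean was 45.5 ± 30.0 (SD, n = 8) in Young livers and 12.0 ± 10.7 (SD, n = 10) in Old livers. The fitted difference was -1.81 ± 0.43 (SE, log2), a level 3.52 times as high in Young. Without Young replicate 1 it no longer passed the threshold, and its range over the 18 fits that each left out 1 library was -2.05 to -1.61.

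Nr4a2, also called Nurr1, was at 0.660, 1.89 and 2.33 scaled TPM in Young AllPrep livers and at 3.13, 4.88, 4.90, 7.58 and 10.1 in Young RNeasy livers. In Old mice its levels were 0.455, 0.461, 0.518, 0.642 and 1.05 with AllPrep and 0.514, 0.661, 0.874, 1.65 and 2.39 with RNeasy. The highest Old RNeasy liver stood below the lowest Young RNeasy liver, while the AllPrep livers overlapped. The fitted difference was -1.49 ± 0.27 (SE, log2), with a range of -1.70 to -1.35 over the 18 fits that each left out 1 library. It was -0.84 in AllPrep livers alone and -1.98 in RNeasy livers alone.

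Nr4a3, also called Nor1, had the lowest mean of the 10 genes over all 18 livers and over the Old livers (0.557), whereas in Young livers Pde4d (1.36) lay below Nr4a3 (1.95). Its level was 0.299, 0.622 and 1.31 scaled TPM in Young AllPrep livers and 1.26, 2.01, 2.10, 3.56 and 4.45 in Young RNeasy livers. In Old mice it was 0.211, 0.247, 0.308, 0.328 and 0.588 with AllPrep and 0.138, 0.426, 0.519, 1.28 and 1.53 with RNeasy. All 10 Old livers lay below the Young median of 1.66, and the ages overlapped within both kits. The fitted difference was -0.99 ± 0.26 (SE, log2). It ranged from -1.15 to -0.84 over the 18 fits that left out 1 library and was past the threshold in 9, not in those without Young replicates 1, 2, 3, 4 or 11 or Old replicates 6, 7, 15 or 18. With 0.1 in place of 0.5 TPM added before the logarithm, the difference was -1.41 for Nr4a3, -1.82 for Nr4a2 and -1.88 for Nr4a1. A weighted fit on the recovered reads (limma-voom) gave -1.75, -2.08 and -1.88.

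Of the kinases that phosphorylate CRTC2, Sik1 had a large age difference and Sik2 one close to 0. Sik1, which is induced by cAMP and acts as a brake on the same pathway, was at 25.8, 47.7 and 53.6 scaled TPM in Young AllPrep livers and at 57.1, 66.1, 75.7, 87.5 and 107.5 in Young RNeasy livers. In Old mice it was at 16.4, 20.7, 23.4, 24.4 and 30.6 with AllPrep and at 16.8, 27.0, 28.8, 38.4 and 43.8 with RNeasy. All 10 Old livers lay below the Young median of 61.6. The fitted difference was -1.14 ± 0.20 (SE, log2), 2.20 times as high in Young, and ranged from -1.29 to -1.01 over the 18 fits that left out 1 library. Sik2 was at 8.30 ± 0.971 (SD, n = 8) in Young livers and 8.13 ± 1.43 (SD, n = 10) in Old livers, with a fitted difference of -0.05 ± 0.11 (SE, log2). Their common target Crtc2 was at 23.4 ± 1.65 and 20.4 ± 3.55, a difference of -0.23 ± 0.10. Old replicate 14 was the lowest of all livers for both Sik2 (4.94) and Crtc2 (11.8).

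Gcgr, at the head of the pathway, differed by little. In Young mice it was at 89.5, 92.0 and 99.3 scaled TPM with AllPrep and at 115.0, 120.0, 120.1, 125.1 and 129.7 with RNeasy. In Old mice it was at 72.3, 72.4, 81.2, 81.3 and 89.0 with AllPrep and at 94.5, 99.3, 99.7, 111.0 and 124.8 with RNeasy. The AllPrep livers did not overlap between ages, and in RNeasy livers 1 Old value reached into the Young range. The fitted difference was -0.22 ± 0.06 (SE, log2), 1.17 times as high in Young. It ranged from -0.26 to -0.20 over the 18 fits that left out 1 library and was past the threshold in 4 of them, those without Young replicate 3 or Old replicates 5, 6 or 14. It was not past it with no scaling between libraries (-0.17) or with the filter on low values at 2 TPM (-0.21).

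Crem, whose gene yields both activators and the cAMP-induced repressor ICER, was at 7.28 ± 0.873 scaled TPM (SD, n = 8) in Young livers and 5.57 ± 1.44 (SD, n = 10) in Old livers. Its difference of -0.36 ± 0.12 (SE, log2) did not pass the threshold. Old AllPrep livers (4.32 to 5.65) all lay below Young AllPrep livers (6.46 to 7.68), whereas 2 Old RNeasy livers, at 8.11 and 8.14, stood among the highest Young ones. It passed in 2 of 18 fits that left out 1 library, those without Old replicate 16 or 17, which hold these 2 values. Isoforms were not separated in the table.

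The 2 phosphodiesterases of the set, which are not the only ones in liver that break down cAMP, did not pass the threshold. Pde4b was at 2.33 ± 0.647 scaled TPM (SD, n = 8) in Young livers and 1.64 ± 0.423 (SD, n = 10) in Old livers, a difference of -0.39 ± 0.15 (SE, log2). That difference was -0.65 in RNeasy livers alone and -0.06 in AllPrep livers alone. Pde4d was at 1.36 ± 0.170 and 1.26 ± 0.169, a difference of -0.06 ± 0.06, and 5 of 10 Old livers lay below its Young median.

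**Figure D2:**
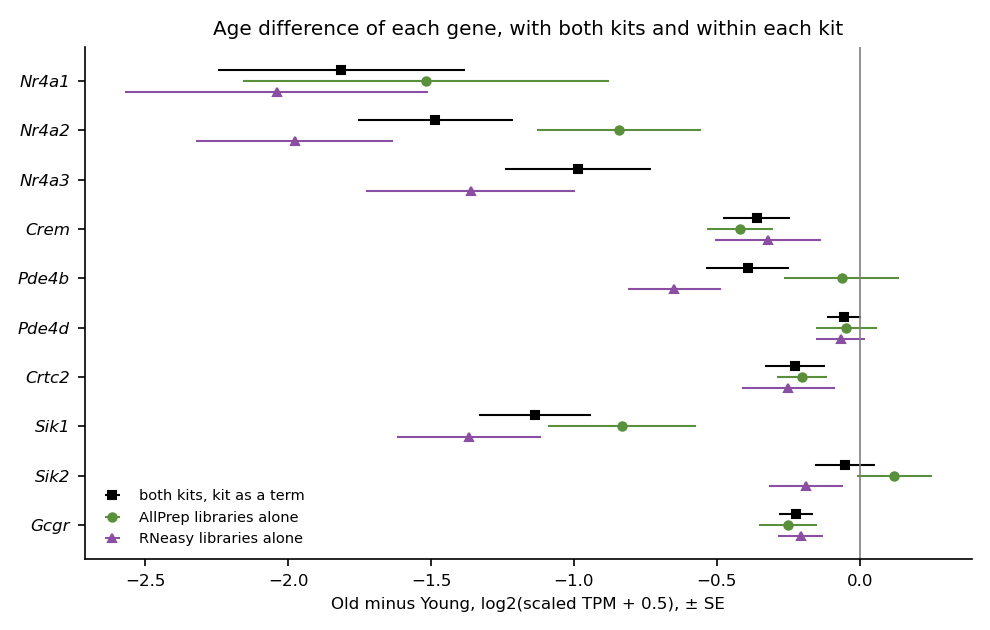
The fitted log2 difference of each gene, Old minus Young, is plotted with its SE for all libraries (squares) and for AllPrep (circles) and RNeasy livers alone (triangles); Nr4a3 was not tested in AllPrep alone. Nr4a1 (-1.52 and -2.04) and Sik1 (-0.83 and -1.37) are negative in both kits, and Sik2 changes sign between them (0.12 and -0.19).

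Kit differences were of a size similar to the age differences for several of these genes. After allowing for age, 6 of the 10 were lower in AllPrep than in RNeasy livers and 0 were higher (limma, adjusted p under 0.05). Over all genes 18.3% passed, 12.6% lower in AllPrep and 5.65% higher. The median kit difference was -0.29 for the 10 genes and 0.01 for all genes. The difference of AllPrep minus RNeasy on the log2 scale was -1.56 ± 0.43 for Nr4a1 (SE, adjusted p = 0.0166), -0.999 ± 0.27 for Nr4a2 (0.0147) and -0.86 ± 0.26 for Nr4a3 (0.0257). For Sik1 the kit difference was -0.61 ± 0.20 (adjusted p = 0.0383), for Gcgr -0.40 ± 0.06 (0.000146) and for Pde4d -0.19 ± 0.06 (0.0333). With factors from a trimmed mean over all 18946 genes the calls of Sik1 (-0.54, adjusted p = 0.0538) and Pde4d (-0.14, 0.0943) were lost, and the split of all calls became 1636 higher and 1489 lower. With no scaling between libraries it was 71 higher and 2912 lower, with a median of all genes at -0.11. Crem (-0.16, adjusted p = 0.375), Pde4b (-0.04), Crtc2 (0.10) and Sik2 (0.11) did not pass.

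Of the 13895 genes, 0 passed a test of whether the age difference itself differed between kits (limma, 0% of genes, with 587 at an unadjusted p under 0.05). The adjusted p of the 10 genes was 0.975 or higher. Among them the AllPrep minus RNeasy gap in the age difference was largest for Nr4a2 (1.12 ± 0.49, SE, log2), Nr4a3 (0.84 ± 0.49) and Pde4b (0.59 ± 0.27). It was negative only for Crem (-0.09) and Gcgr (-0.03). With so few livers per kit and age, a missed threshold does not show that the age difference was alike in both kits. Within RNeasy livers every Old value lay below every Young value for 3 of the 10 genes, Nr4a1, Nr4a2 and Sik1, and within AllPrep livers for 2, Crem and Gcgr. The share of all genes was 1.62% in RNeasy and 6% in AllPrep livers, which is background only, as the choice of the 10 used their age differences. In either kit alone none of the 10 passed the threshold for age (limma), where 103 higher and 59 lower genes passed with AllPrep and 9 and 7 with RNeasy. Without the kit term Nr4a1, Nr4a2 and Sik1 passed, and Nr4a3 and Gcgr did not. Of 40 tested markers in 8 lists of liver cell types, 0 passed for age (limma; 15 at an unadjusted p under 0.05, of which 10 were higher in Old) and 0 followed Nr4a1. Over all genes, 3254 of 13895 were at an unadjusted p under 0.05 for age. The summed monocyte and neutrophil markers ranged from 4.39 to 28.2 scaled TPM in Young and from 8.68 to 85.0 in Old livers, and the summed T and NK cell markers from 2.99 to 12.1 and from 4.33 to 16.9. B cell markers summed to 3.66 to 6.62 in Young and 4.73 to 19.9 in Old livers, and cholangiocyte markers to 6.88 to 11.1 and 8.91 to 20.5. By age, Kupffer cell and macrophage markers summed to 216 to 419 and 240 to 663, and stellate cell markers to 156 to 278 and 196 to 323. Endothelial markers summed to 98.5 to 148 and 100 to 156. No marker was at 0 in any library. After allowing for age, 4 of 8 Kupffer cell and macrophage markers and 4 of 5 stellate cell markers were higher in AllPrep livers. The summed Kupffer cell and macrophage markers ranged from 276 to 663 scaled TPM in AllPrep and from 216 to 534 in RNeasy livers, and the summed stellate cell markers from 185 to 323 and from 156 to 261. The part of these cells in the age and kit differences of the 10 genes was not tested. The hepatocyte markers summed to 83734 to 121001 in Young and 89103 to 141379 in Old livers, far above every other list.

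Among the 9 other genes of the set, Nr4a2, Nr4a3, Sik1 and Crem had the largest slopes on Nr4a1 from liver to liver within ages. Slopes on the log2 level of Nr4a1, with age and kit as terms, were 0.46 ± 0.10 (SE) for Nr4a2, 0.44 ± 0.10 for Nr4a3, 0.30 ± 0.08 for Sik1 and 0.20 ± 0.04 for Crem. Of the 9 other genes only Crem passed (limma, adjusted p = 0.0432), while the adjusted p was 0.0508 for Nr4a2, 0.0508 for Nr4a3 and 0.0865 for Sik1. Over all genes 0.612% passed, 85 of 13894. The Crem call was lost without Old replicate 14 (0.17, adjusted p = 0.0932) and without the 2 livers farthest from the median of Nr4a1, Old replicate 7 and Young replicate 4 (0.20, 0.092). The remaining 5 genes had slopes close to 0: Crtc2 0.06 ± 0.06, Gcgr -0.0015 ± 0.03, Pde4b -0.01 ± 0.08, Pde4d -0.01 ± 0.03 and Sik2 -0.02 ± 0.06.

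As a description over the 18 livers, which share library and scaling, partial correlations after age and kit were 0.94 between Nr4a2 and Nr4a3, 0.80 between Nr4a3 and Sik1, 0.75 between Nr4a2 and Sik1, and 0.78 between Nr4a1 and Crem. That between Crtc2 and Sik2 was 0.76, both with Old replicate 14 as their lowest liver. Gcgr had values of -0.01 with Nr4a1, -0.34 with Nr4a2 and -0.38 with Nr4a3.

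**Figure D3:**
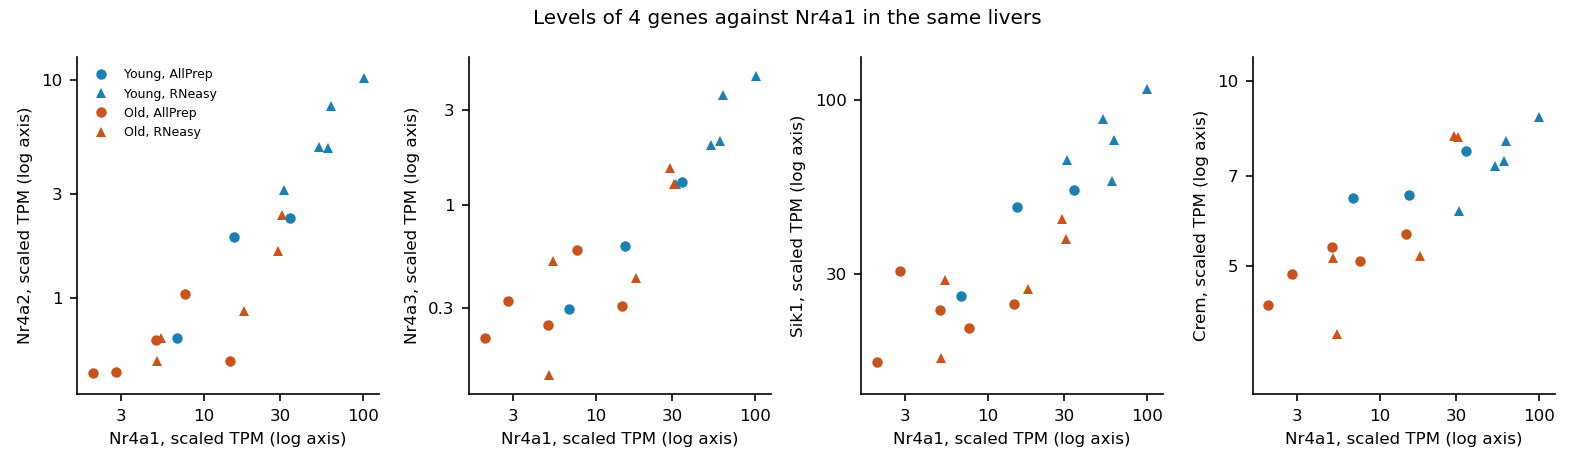
Scaled TPM of Nr4a2, Nr4a3, Sik1 and Crem is plotted against that of Nr4a1 in the same 18 livers, with both axes on a log scale, colour for age and shape for kit. The Young RNeasy livers lie at the upper right and most Old livers at the lower left, so the groups are spread along both axes. The slopes with age and kit as terms were 0.46, 0.44, 0.30 and 0.20.

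Among the 8764 genes whose mean on the log2 scale reached 2, the 8 whose pattern was most like that of Nr4a1 after age and kit were Pxdc1 (partial correlation 0.91), Gadd45b (0.90), Gadd45g (0.89), Ppp1r3g (0.85), Irak2 (0.84), Rhpn2 (0.83), Grpel2 (0.82) and Oser1 (0.82). Gadd45b and Gadd45g are stress-inducible genes of growth arrest, and Ppp1r3g encodes a liver subunit that directs protein phosphatase 1 to glycogen. Of these 8, Gadd45g (-2.23 ± 0.43, SE, adjusted p = 0.00936) and Ppp1r3g (-2.56 ± 0.54, adjusted p = 0.0141) were lower in Old livers (limma, log2). Their median level was 94.9 in Young and 16.2 in Old for Gadd45g, and 15.4 and 0.993 for Ppp1r3g. The other 6 did not pass, with log2 differences between -0.26 for Gadd45b and 0.27 for Rhpn2. Genes most like Crem were Pramel12 (0.92), Lysmd3 (0.92), Stam (0.91) and P2ry1 (0.90), and none of these 4 passed for age (limma, adjusted p of 0.573 or higher).

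The other genes of the pathway were taken from 8 lists of 108 genes, of which 90 were tested. Of these, 2 were higher and 7 lower in Old livers (limma, 10% called against 4.91% of all genes), and their median difference was -0.02. The lists were drawn up with earlier results of these livers known, so the share called is a description and no test against all genes. In RNeasy livers alone 0 of them passed (limma; 19 at an unadjusted p under 0.05), and in AllPrep livers alone 3 (16), which were Rapgef4, Pde1a and, not called with both kits, Tat. Over all genes 3254 of 13895 were at an unadjusted p under 0.05 with both kits. In RNeasy livers alone 1336 genes were, and in AllPrep livers alone 2654.

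From the receptor to the transcription factors, Pde1a and Rapgef4 were the only genes of these lists that passed the threshold. Of 14 receptor, G protein and arrestin genes 0 passed in either direction (limma; 1 at an unadjusted p under 0.05), with a median of 0.07 on the log2 scale. The alpha-1B adrenergic receptor Adra1b was at 16.2 ± 2.81 scaled TPM (SD, n = 8) in Young livers and 19.5 ± 2.23 (SD, n = 10) in Old livers, with a difference of 0.28 ± 0.10 (SE, adjusted p = 0.0936). The inhibitory G protein genes Gnai2 (0.15) and Gnai1 (-0.43) and the arrestin gene Arrb1 (0.12) had adjusted p-values of 0.287, 0.332 and 0.288. Of 6 adenylyl cyclases, which make cAMP, 0 passed (limma; 2 at an unadjusted p under 0.05), with differences of 0.29 for Adcy3, 0.32 for Adcy7, -0.14 for Adcy4 and 0.08 for Adcy9. Among 10 other phosphodiesterases, the calcium-dependent Pde1a rose from 0.946 ± 0.126 (SD, n = 8) to 1.48 ± 0.416 (SD, n = 10), a difference of 0.40 ± 0.11 (SE, limma adjusted p = 0.0451). The difference was 0.66 in AllPrep and 0.19 in RNeasy livers alone (adjusted p = 0.694). It passed in 4 of 18 fits that left out 1 library, and its call was lost with no kit term (adjusted p = 0.0551), no filter (0.0666) and limma-voom (0.0555). Pde2a (-0.22), Pde3a (0.13) and Pde4a (0.22) did not pass.

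Of 8 genes of protein kinase A and of Epac, the cAMP-activated exchange factors for Rap, Rapgef4 was lower in Old livers. Its level was 57.1 ± 6.35 scaled TPM (SD, n = 8) in Young livers and 34.4 ± 12.0 (SD, n = 10) in Old livers, a difference of -0.77 ± 0.17 (SE, limma adjusted p = 0.0194), and all 10 Old livers lay below the Young median. The regulatory subunit Prkar1a (-0.07), the anchoring protein Akap1 (0.12) and Rapgef3 (0.07) did not pass, although Akap1 did without Old replicate 14 (0.20, adjusted p = 0.0285). Of 12 genes of CREB and its partners 0 passed (limma; 0 at an unadjusted p under 0.05), among them Creb1 (0.14), the coactivators Ep300 (0.17) and Crebbp (0.13), and the liver-specific Creb3l3 (-0.17).

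Cebpb, Per1 and Pck1, genes that cAMP switches on in liver, were lower in Old livers. Of 16 such genes other than the 10 of the set, these 3 passed and 0 passed as higher (limma; 9 at an unadjusted p under 0.05), 13 had a negative value, and the median was -0.52 on the log2 scale. Cebpb, a transcription factor of the fasting liver, was at 101.7 ± 12.4 scaled TPM (SD, n = 8) in Young livers and 56.4 ± 16.3 (SD, n = 10) in Old livers, a difference of -0.90 ± 0.15 (SE, limma adjusted p = 0.00375). Pck1, the key enzyme that commits to gluconeogenesis, was at 5509 ± 703 (SD, n = 8) in Young livers and 2925 ± 869 (SD, n = 10) in Old livers, a difference of -0.99 ± 0.21 (adjusted p = 0.0137). The clock gene Per1 differed by -1.23 ± 0.22 (adjusted p = 0.00557) and was also lower in AllPrep livers (-0.86, 0.00922). In all 10 Old livers each of these 3 genes lay below its Young median. Tat, tyrosine aminotransferase, had a difference of -0.88 ± 0.26 (adjusted p = 0.0575) and did not pass. It passed without Old replicate 14 (-0.61, adjusted p = 0.00262), its lowest liver, without Old replicates 6 (0.0465), 16 (0.0381) or 17 (0.0487), and in AllPrep livers alone (-0.76, 0.0385).

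Among 5 liver genes described as under NR4A control, 0 passed in either direction (limma; 1 at an unadjusted p under 0.05). Glucose-6-phosphatase, G6pc, was at 787 ± 230 scaled TPM (SD, n = 8) in Young livers and 539 ± 105 (SD, n = 10) in Old livers, a difference of -0.49 ± 0.15 (SE, limma adjusted p = 0.0719). It passed without Young replicate 12 (-0.57, adjusted p = 0.0479) and without Old replicate 16 (-0.56, 0.04). The enolase gene Eno3 (0.15), the glucose transporter gene Slc2a2 (0.16) and the fructose bisphosphatase gene Fbp2 (-0.10) had adjusted p-values of 0.358 or higher.

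Of 23 immediate early genes, which many signals induce within minutes, 3 were lower and 1 higher in Old livers, with a median of -0.29 on the log2 scale. That was 17.4% called against 4.91% of all genes (limma), a description only, and 8 were at an unadjusted p under 0.05. In either kit alone the called genes, Socs3, Myc, Gadd45g and Klf6, did not pass. Socs3, a feedback inhibitor of cytokine signalling, fell from 38.6 ± 8.05 scaled TPM (SD, n = 8) to 12.6 ± 6.52 (SD, n = 10), a difference of -1.68 ± 0.25 (SE, limma adjusted p = 0.00277). Myc fell from 23.9 ± 13.1 to 6.04 ± 3.12 (-1.78 ± 0.29, adjusted p = 0.00345). Gadd45g, already named for its likeness to Nr4a1, fell from 86.4 ± 38.0 to 19.8 ± 15.4. Klf6 rose from 6.01 ± 0.492 to 10.4 ± 3.99 (0.69 ± 0.15, adjusted p = 0.017). The classical members Fos (-0.58, adjusted p = 0.588), Egr1 (0.19, 0.853) and Junb (-0.58, 0.222), singled out after their values were seen, did not pass. Of all 90 tested pathway genes, 3 followed Nr4a1 within ages, all with a positive slope (limma): Gadd45g (0.88, adjusted p = 0.00238), Gadd45b (0.82, 0.00206) and the pyruvate dehydrogenase kinase gene Pdk4 (0.61, 0.0415). The call of Pdk4 was lost without the 2 livers farthest from the median of Nr4a1 (0.62, adjusted p = 0.0911) and with no composition scaling (0.61, 0.0578). By age Pdk4 had a positive value, unlike Gadd45g, and did not pass. It was at 22.4 ± 8.18 scaled TPM (SD, n = 8) in Young livers and 46.6 ± 32.8 (SD, n = 10) in Old livers. The difference was 0.88 ± 0.35 (SE, log2, limma adjusted p = 0.135).

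**Figure D4:**
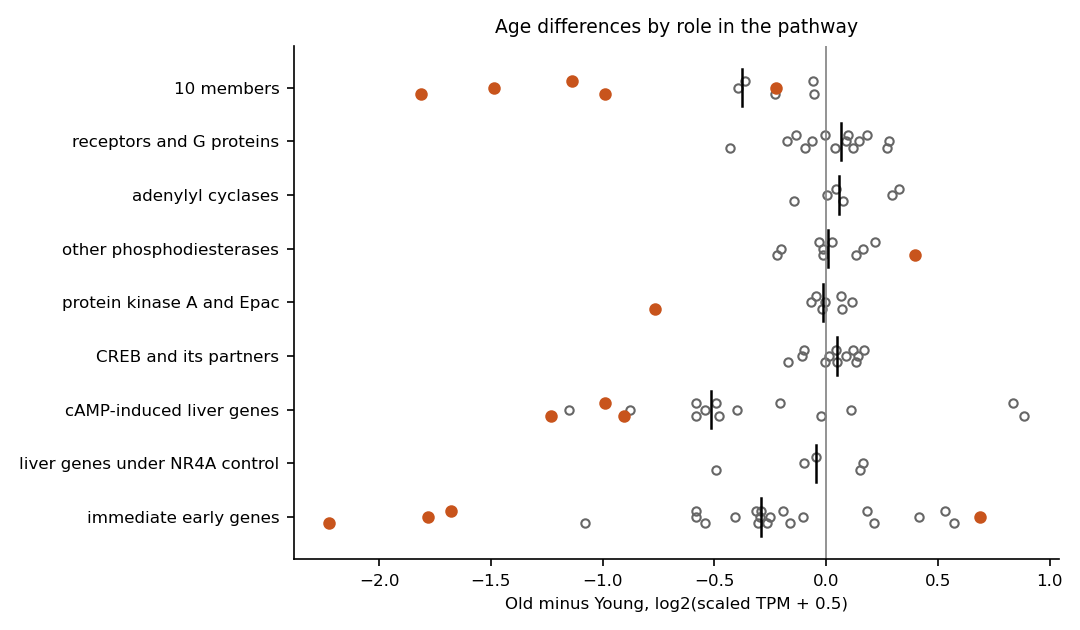
Each circle is 1 gene's fitted log2 difference, Old minus Young, by its role in the pathway, filled where the adjusted p (limma) was under 0.05, with a black bar at the median of each row. Receptors, cyclases and CREB partners lie around 0 (medians 0.07, 0.06 and 0.05). The cAMP-induced liver genes (-0.52) and the immediate early genes (-0.29) lie lower, and Fos, Junb and Dusp1 stand in both of these rows.

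Of the traits that the labels give for each mouse, suppression of glucose production, liver glycogen and clamp insulin were used to ask whether the genes follow the clamp response among mice of the same age. Insulin suppressed glucose production by 68.4% to 92% in Young and by 25.4% to 68.4% in Old mice. Slopes on this suppression were taken per SD of the trait over the 18 mice (22.7 percentage points). These slopes were negative for 9 of the 10 genes, against a median of -0.009 over all genes. They were -0.47 ± 0.24 (SE, log2) for Nr4a2, -0.47 ± 0.23 for Nr4a3, -0.31 ± 0.18 for Sik1 and -0.24 ± 0.43 for Nr4a1. None of the 10 passed, with adjusted p-values of 0.555 or higher and 0 at an unadjusted p under 0.05, and 0 of 13895 genes did (limma, 0%; 1267 at an unadjusted p under 0.05).

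Liver glycogen ranged from 23.2 to 50.6 in Young mice and only from 19.2 to 28.4 in Old mice, in the labels' unit. Its SD over the 18 mice was 10.5, so the Old range was narrower than 1 SD. On liver glycogen 8 of 10 slopes were negative and 0 genes passed (limma, 0% of genes; 412 at an unadjusted p under 0.05). The median slope of all genes on glycogen was -0.003. At an unadjusted p under 0.05 were 2 of the 10, Nr4a2 with -0.51 ± 0.20 per SD (p = 0.0202, limma adjusted p = 0.998) and Nr4a3 with -0.43 ± 0.20 (0.0422, adjusted p = 0.998). On the insulin concentration during the clamp, which ranged from 42.6 to 65.1 in Young and from 42.9 to 75.3 in Old mice in the labels' unit, 0 genes passed (limma, 0%; 239 at an unadjusted p under 0.05). The slope of Nr4a1 on insulin was 0.14 ± 0.22 and that of Crem 0.09 ± 0.06. A slope that misses the threshold does not show that a gene is unrelated to the trait, and the SE of the Nr4a1 slopes, 0.22 to 0.43, limits what 18 mice could resolve.

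**Figure D5:**
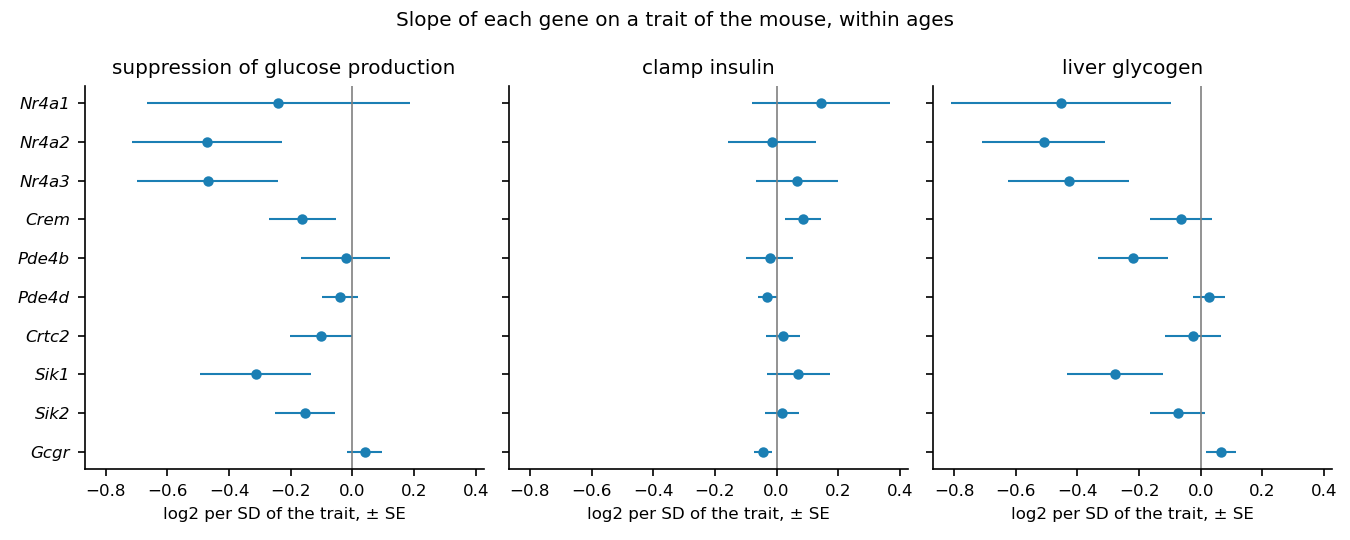
Slopes of the 10 genes on 3 traits of the mice, in log2 per SD of the trait with SE, come from fits with age and kit as terms. None passed the threshold; the points farthest from 0 are Nr4a2 on glycogen (-0.51) and Nr4a2 and Nr4a3 on suppression of glucose production (-0.47 each).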

How the data were processed

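RNA of 18 livers was measured by RNA sequencing after ribosomal RNA depletion, per the labels' protocols. The authors deposited TPM for 18946 genes, with each library summing to 1000000. STAR 2.7.9a, Subread and featureCounts and the builds GRCm39 and mm10 are named per the submitters' processing notes, without a role for each. How gene lengths, annotation and strand were set is not given in the sources used here. Overlapping and antisense genes are therefore uncertain. TPM ratios between libraries gave whole reads for 18946 of 18946 genes (largest distance from a whole number 2e-08), 85790735 to 127487820 per library, with no count of 0 among the 10 genes.

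Scaling factors for the deposited TPM values came from the tested genes, as trimmed means of log ratios (each end lost 30% by log ratio and 5% by mean level), and the scaled values were tested as log2(scaled TPM + 0.5) with limma 3.58.1 in R 4.3.3, with a variance trend and Benjamini-Hochberg adjustment over all genes tested. A gene was tested where 8 or more libraries had 0.5 TPM or more, which 13895 genes met, among them all 10 genes of the set. Low genes' differences are understated on this scale. Age was fitted with kit as a term, kit with age as a term, and slopes with both. The fit and the recovery of reads were tested on simulated data. Python 3.11.15, numpy 2.4.6, pandas 2.3.3 and matplotlib 3.10.9 were used for the rest.

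The 10 genes and all lists were chosen with earlier results of these data known. Named genes are the 10, up to 4 genes with the smallest p for age in each list, and the 8 and 5 genes with the highest partial correlation with Nr4a1 and Crem among genes whose mean on the log2 scale reached 2. Of these, 1 is not reported here. Glp1r, Gipr, Sctr, Pde11a and Fosl1 were listed and not analysed here. As alternatives, the kit term was dropped, each kit was fitted alone, and the scaling, filter, pseudocount, tool (limma-voom on recovered reads) and libraries (each left out in turn) were varied. The scaling of the kit difference and the age by kit interaction were added after the data had been seen.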

Additional observations from a re-analysis of the deposited data

Results flagged for a closer look

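In 10 of 108 combinations of a gene and an age, from 54 genes, a single liver stood apart from the others of its age beyond Dixon's 95% limit on the log2 scale. Chance alone flags about 1 in 20 groups, and genes of 1 liver are not independent. Old replicate 14 was the liver in 6 of the 10. Its scaled TPM was the lowest of the Old livers for Crtc2 (11.8, the next 18.6), Sik2 (4.94, the next 7.42), Akap1 (62.9, the next 94.9), Pck1 (1039, the next 2316) and Tat (183.2, the next 555), and the highest for Klf6 (20.9, the next 12.3). Young replicate 1 was the lowest Young liver for Adcy9 (7.57, the next 11.3), Ep300 (12.9, the next 18.9) and Crebbp (15.8, the next 23.3). Young replicate 11 was the lowest Young liver for Adcy4 (2.18, the next 3.08). By the same limit none of these livers stood apart in Nr4a1, Nr4a2, Nr4a3, Sik1, Crem or Gcgr.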

How the results depend on the processing

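No paired analysis was possible because no replicate number occurs in both ages. The lowest value of the 10 genes rests on 46 reads, and whether depth limited their differences was not tested. The kit and the small number of livers within each kit limit the age differences, and no cause was tested. Over 276 alternative fits of the 10 genes' age differences, 273 kept the sign, the exceptions all being Sik2. Its difference was 0.12 in AllPrep alone, 0.03 without Old replicate 14 and 6e-04 with no composition scaling. Genes called for age numbered 339 higher and 343 lower. They numbered 103 and 59 in AllPrep alone (pathway genes 3, against 9), and 9 and 7 in RNeasy alone (pathway genes 0). With no composition scaling 341 and 188 were called (64.5% higher in Old, against 49.7%). The fits without 1 library gave 176 to 500 higher, 184 to 464 lower and 8 to 12 pathway genes. Counts fell by over 1.5 times without Young replicates 1 (180 and 195), 2 (198 and 188), 4 (228 lower), 10 (176 and 184), 11 (220 and 209) or 12 (219 and 216), and without Old replicates 7 (221 and 222), 9 (208 and 213) or 15 (213 and 205). Of the 9 pathway genes called, 8 passed in 18 of 18 such fits, and Pde1a in 4. Adcy9 changed sign in RNeasy alone (-0.12) and without Young replicate 1 (-0.042), and Fbp2 in RNeasy alone (0.11). The filter at 2 TPM removed Nr4a2, Nr4a3 and Pde4d, and Nr4a3 was not tested in AllPrep alone.

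Genes that followed Nr4a1 numbered 85. The count was 1700 with no kit term, 30 with no composition scaling, 33 without Old replicate 14 and 15 without the 2 farthest livers. With no kit term the slopes of Nr4a2, Nr4a3 and Sik1 passed (adjusted p of 0.00113, 0.00139 and 0.00387), and those of Pde4b (0.0038), Pde4d (0.043) and Gcgr (0.11) changed sign. The call of Crem was also lost with no composition scaling (0.20, adjusted p = 0.0716). Slopes on Nr4a1 also changed sign for Crtc2 without Old replicate 14 (-0.023), for Pde4b (0.33) and Crtc2 (-0.0053) in Young alone, and for Sik2 (0.003) and Gcgr (0.012) in Old alone. In Young alone 6 genes followed Nr4a1 and in Old alone 0. On suppression of glucose production, Pde4b (0.16) and Gcgr (-0.040) changed sign in Young alone. On clamp insulin, Nr4a1 (-0.33), Nr4a3 (-0.40), Crem (-0.10), Crtc2 (-0.040), Sik1 (-0.21) and Sik2 (-0.0047) did so in Young alone, and Nr4a2 (0.15) in Old alone. On glycogen, Pde4b (0.078), Crtc2 (0.32) and Sik2 (0.28) did so in Old alone. Genes called higher in AllPrep numbered 71 with no composition scaling, where 2912 were lower, and 1636 with a trimmed mean over all genes. The kit differences of Crtc2 (-0.036) and Sik2 (-0.013) changed sign with no composition scaling, and that of Pde4b (0.012) with a trimmed mean over all genes.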
